A study of Homo sapiens with 8 samples.

Results

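The 49 genes described here encode the proteins that find a broken DNA end and repair it by homologous recombination, through the Fanconi pathway or by end joining. They were taken by name from their known roles and not by a measured value, although earlier results of these data were known. They are 49 of the 20165 gene rows of each library. By role they are 11 genes of strand exchange and its mediators, 6 of the sensing and resection of break ends, 5 of the checkpoint kinases, 6 of break chromatin, 12 of the Fanconi pathway, 8 of end joining and 1 junction nuclease, MUS81. Every gene had 1 row, and 48 passed the filter on low counts.

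In homologous recombination, the ends of a break are trimmed to single strands, and BRCA1, PALB2 and BRCA2 prepare them for strand exchange, so that the intact sister chromatid serves as the template. Fanconi proteins recognise strands that are crosslinked to each other and hand the lesion to nucleases and to recombination. End joining instead ligates the ends directly, after the Ku proteins have bound them. Loss of recombination genes is a known feature of many high-grade serous ovarian carcinomas, and it underlies the use of PARP inhibitors in that disease.

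RNA-seq was performed on OVCAR3 cells, an established human ovarian carcinoma line, with 2 libraries in each of 4 groups. In the first experiment the cells received siRNA at 30 nM, either a control siRNA (siControl) or one against OARD1 (siTARG1), which encodes TARG1, a hydrolase that takes ADP-ribose off proteins, and were harvested after 48 h. In the second experiment both groups carried a Dox-inducible shRNA against endogenous RACK1, a ribosomal protein, together with an introduced RACK1 that was wild type (RACK1-WT) or mutated at its MARylation sites (RACK1-Mut), and both received 1 µg/ml Dox for 48 h. Which of the siRNAs against OARD1 was used is not given in the sources used here. The RACK1 cells were pools selected after lentiviral infection, and the libraries of a group are, by the study's methods, from independent samples of the cells.

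The exon counts were between 30989049 and 42668783 per library. OARD1 was at 48.5 and 52.0 CPM (exon counts per 1e+06, scaled by TMM) in the siControl libraries and at 3.11 and 3.98 in the siTARG1 libraries, 7.04% of the siControl level. The 40 counted bases of the 3′ untranslated region of RACK1 lay between 291 and 345 CPM in the siRNA libraries and between 15.7 and 19.0 in the RACK1 libraries. Of 13 markers of ovarian carcinoma lines all but CLDN4, of which few bases were counted, were above 1 CPM in every group, whereas their sum was between 2773 and 2866 CPM in siTARG1 and between 4078 and 4266 in siControl. The 11 markers of other cell types that had a row summed to between 21.8 and 33.8 CPM in any library, with CD3E at 0 in every library.

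The members differed more from each other than between the groups. On the scale of CPM per kilobase of counted exon, which allows genes to be compared, the siControl level of the 48 members tested had a median of 7.39 and ranged from 2.29 to 224. XRCC5 and XRCC6, which encode the Ku80 and Ku70 proteins that ring a broken end, were the highest, at 224 ± 0.67 and 104 ± 4.71 CPM per kilobase (SD, n = 2). They were followed by RBBP8, which encodes the resection factor CtIP, at 51.5 ± 2.18 (SD, n = 2), and these genes held the first 3 ranks in each of the 4 groups. At the other end stood FANCC at 2.29 ± 0.13, SLX4 at 2.35 ± 0.16 and BRCA2 at 2.49 ± 0.0056 (SD, n = 2). LIG4, the ligase of end joining, could not be measured: only 291 bases of it were counted, with between 3 and 11 counts per library, and it was not tested.

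**Figure D1:**
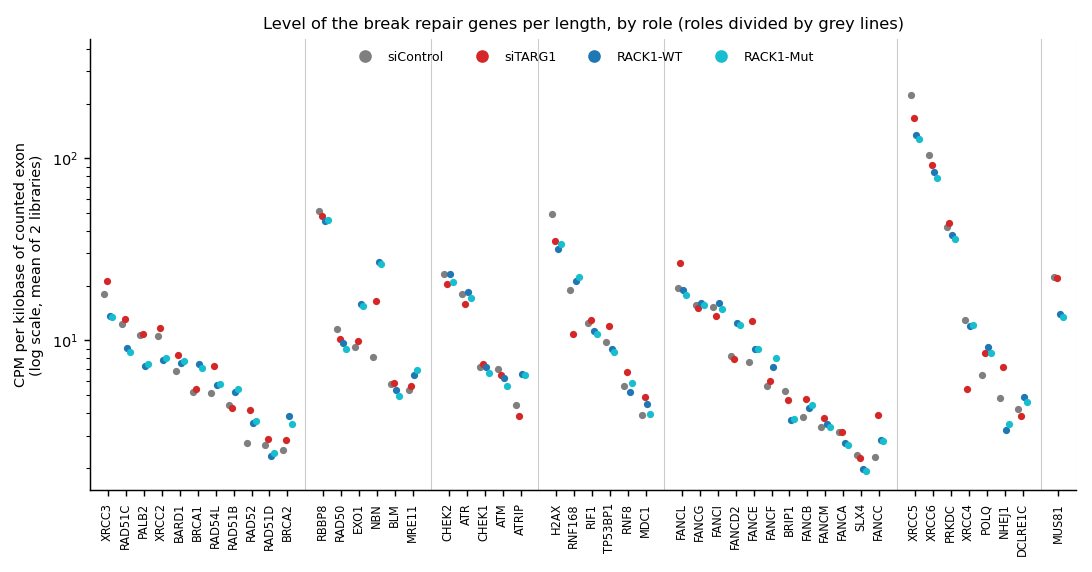
Level of the 48 tested members in CPM per kilobase of counted exon, on a log axis, with 1 point per group (mean of 2 libraries) and the roles divided by grey lines. XRCC5 and XRCC6 lie above all others, while RNF168 and XRCC4 show a lower siTARG1 point and NBN, FANCC and FANCE a higher siTARG1 point than siControl.

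The first comparison asked which of these transcripts changed when TARG1 was depleted. Of the 48 members tested, 13 were higher and 5 were lower in siTARG1 than in siControl by edgeR's quasi-likelihood test (adjusted p below 0.05). These are 27.1% and 10.4% of the members, against 23.5% and 23.1% of all 14024 rows tested. The share of members that rose was thus near that of all genes, and the share that fell was below it. The median log2 fold change was 0.052 over the members and 0.007 over all rows. In 34 of the 48 members the libraries of both groups did not overlap, against 70.0% of all rows, and these included all 18 members that changed. Log2 fold changes beyond 1 in size were seen for NBN and XRCC4 alone. Each is given with its standard error (SE).

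**Figure D2:**
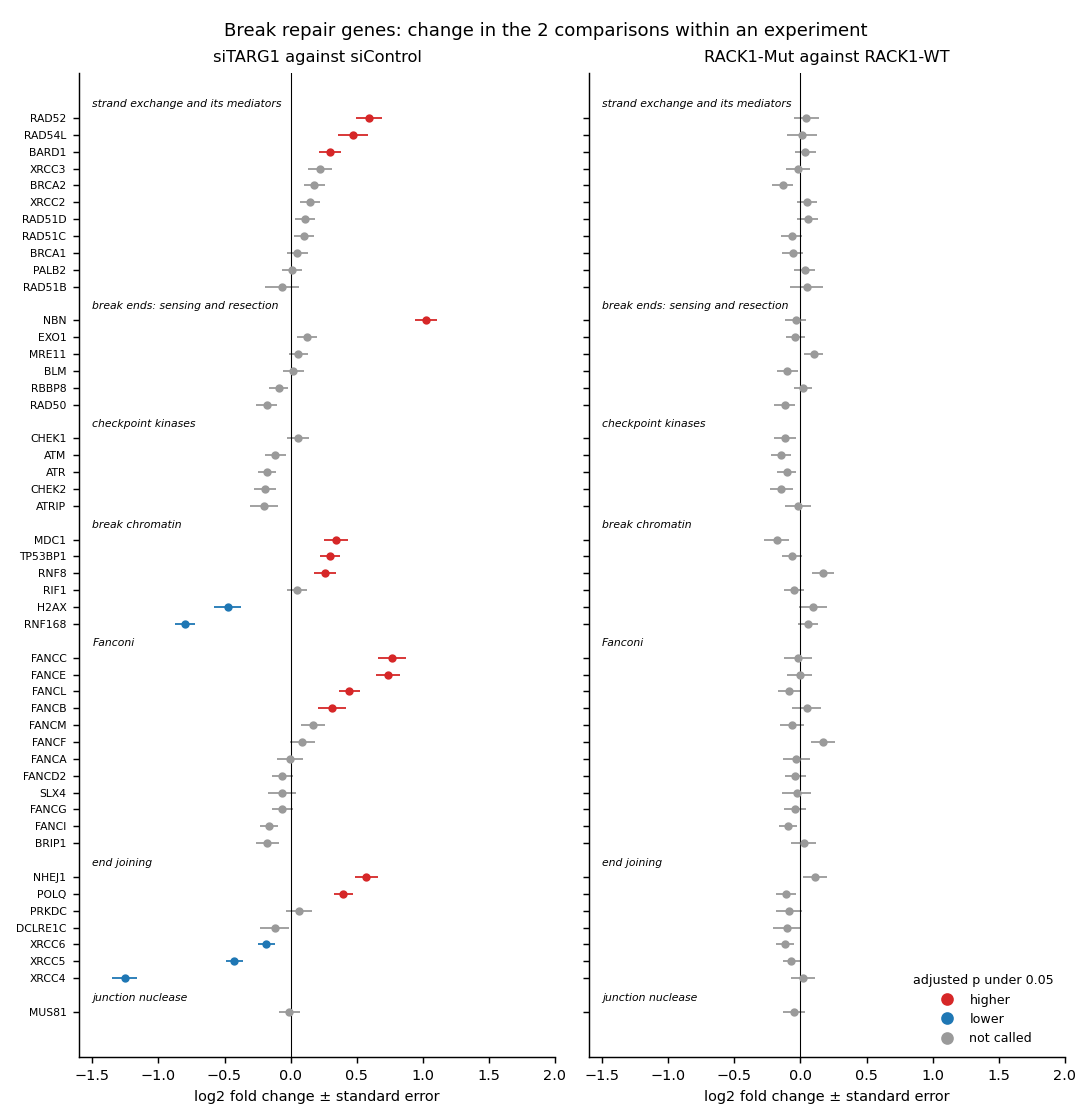
Log2 fold change with its standard error for the 48 tested members, by role, in siTARG1 against siControl (left) and RACK1-Mut against RACK1-WT (right), coloured by the call at an adjusted p of 0.05. The left panel spans −1.26 (XRCC4) to 1.02 (NBN), while in the right panel all points lie between −0.18 and 0.17 and none is called.

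Break ends showed 1 rise among 6 members (16.7%, against 23.5% of all rows) and no fall (against 23.1%). NBN encodes nibrin, the subunit of the MRE11-RAD50-NBN complex that carries it to breaks and recruits the kinase ATM. NBN (ENSG00000104320, chromosome 8 of GRCh37, 90936743 to 91015456, minus strand) was at 36.3 and 39.4 CPM in the siControl libraries and at 71.5 and 82.3 in the siTARG1 libraries. Both siTARG1 libraries were far above both siControl libraries, and the log2 fold change was 1.02 (SE 0.082, adjusted p = 2.72e-07), a 2.03-fold rise. Its partners did not pass the test: MRE11, the nuclease of the complex, had a log2 fold change of 0.059 and RAD50, its clasp, one of −0.18. The ratio of NBN to MRE11 per length was 1.44 and 1.58 in siControl and 2.84 and 3.05 in siTARG1. EXO1 (0.12), BLM (0.02) and RBBP8 (−0.09), which lengthen or start the resected strand, were not called.

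Among the Fanconi genes, 4 of 12 rose (33.3%, against 23.5% of all rows) and none fell (against 23.1%). With 12 genes the first share is close to that of all rows. The 4 genes encode subunits of the core complex, the ubiquitin ligase that marks FANCD2 and FANCI. FANCC (ENSG00000158169, chromosome 9 of GRCh37, 97861336 to 98189078, minus strand) and FANCE (ENSG00000112039, chromosome 6 of GRCh37, 35420115 to 35434881, plus strand) encode neighbours within that complex. FANCC was at 11.2 and 10.3 CPM in siControl and at 19.8 and 16.8 in siTARG1, a log2 fold change of 0.77 (SE 0.106, adjusted p = 4.76e-05). FANCE was at 20.3 and 18.7 CPM in siControl and at 35.1 and 30.1 in siTARG1, a log2 fold change of 0.74 (SE 0.093, adjusted p = 1.98e-05). For both genes the groups did not overlap, and the ratio of FANCC to FANCE per length lay between 0.297 and 0.327 in all 8 libraries.

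FANCL is the catalytic subunit of the core complex. It was at 34.1 and 32.1 CPM in siControl and at 46.3 and 43.9 in siTARG1, a log2 fold change of 0.45 (SE 0.081, adjusted p = 4.69e-04). FANCB, which binds FANCL, was at 12.2 and 10.8 CPM in siControl and at 14.7 and 14.0 in siTARG1, a log2 fold change of 0.31 (SE 0.107, adjusted p = 0.0268). The FANCB libraries did not overlap, but its call was lost without siControl replicate 2 (log2 fold change 0.24) or siTARG1 replicate 1 (0.28). The other core subunits FANCA (−0.003), FANCF (0.09), FANCG (−0.06) and FANCM (0.17) did not pass the test. Neither did the substrates FANCD2 (−0.06) and FANCI (−0.17), the helicase BRIP1 (−0.18) and the nuclease scaffold SLX4 (−0.06).

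Strand exchange genes showed 3 rises among 11 members (27.3%, near the 23.5% of all rows) and no fall. RAD52, which anneals single strands, was at 8.44 and 8.76 CPM in siControl and at 12.7 and 13.3 in siTARG1. Its log2 fold change was 0.59 (SE 0.097, adjusted p = 2.03e-04). RAD54L, a motor protein that acts in strand invasion, was at 18.2 and 14.3 CPM in siControl and at 23.5 and 21.7 in siTARG1, a log2 fold change of 0.47 (SE 0.112, adjusted p = 0.00344). In both genes the siTARG1 libraries lay above the siControl libraries. BARD1, the partner of BRCA1, had a log2 fold change of 0.30 (adjusted p = 0.00751), which was not called without siControl replicate 1 (0.27) or siTARG1 replicate 2 (0.21).

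The genes best known for recombination deficiency in this disease did not pass the test after TARG1 depletion. BRCA1 was at 36.8 and 38.8 CPM in siControl and at 38.1 and 40.2 in siTARG1, with overlapping libraries and a log2 fold change of 0.051 (SE 0.081). BRCA2 was at 29.9 and 29.8 CPM in siControl and at 33.4 and 34.3 in siTARG1. Its groups did not overlap, yet a log2 fold change of 0.18 (SE 0.081, adjusted p = 0.0859) missed the threshold. PALB2, which bridges them, had a log2 fold change of 0.013.

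The 5 accessory genes of strand exchange, RAD51B, RAD51C, RAD51D, XRCC2 and XRCC3, had log2 fold changes between −0.062 and 0.22, and none was called. RAD51C was at 34.2 and 34.8 CPM in siControl and at 35.5 and 38.5 in siTARG1 (log2 fold change 0.10, SE 0.078). XRCC2 was at 32.1 and 32.5 CPM against 35.6 and 35.8 (0.15, SE 0.074). XRCC3 was at 60.9 and 54.9 CPM against 72.9 and 62.3 (0.22, SE 0.09, adjusted p = 0.0563). The groups of XRCC3, XRCC2, RAD51C and RAD51D did not overlap, which was so for 70.0% of all rows. XRCC3 passed the threshold without siControl replicate 1 (0.31) or siTARG1 replicate 2 (0.32). RAD51B lay between 6.39 and 7.06 CPM in these libraries, with overlapping groups (−0.062, SE 0.128). RAD51D was at 49.7 and 49.2 CPM against 56.3 and 50.4 (0.11, SE 0.079), but its row also holds RFFL and ENSG00000267618, so that the reads of these genes cannot be told apart.

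Break chromatin held changes in both directions, with 3 of its 6 members higher and 2 lower. RNF168 (ENSG00000163961, chromosome 3 of GRCh37, 196195654 to 196230639, minus strand) encodes the ubiquitin ligase that marks histone H2A around a break and so brings in 53BP1 and BRCA1. It was at 100.05 and 101.58 CPM in siControl and at 53.7 and 62.1 in siTARG1. Both siTARG1 libraries were well below the control libraries, and the level fell to 57.5% (log2 fold change −0.80, SE 0.077, adjusted p = 1.59e-06). RNF8, the ligase that acts just before it, moved the other way with a log2 fold change of 0.26 (adjusted p = 0.0211). The RNF168 to RNF8 ratio per length was 3.44 and 3.26 in siControl and 1.60 and 1.62 in siTARG1. The RNF8 call was lost without siControl replicate 1 (0.22) or siTARG1 replicate 2 (0.15). It was also lost with coding-sequence counts (0.26) and when only the 4 libraries of the comparison were fitted (0.26).

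H2AX, the histone variant that ATM phosphorylates at breaks, was at 74.2 and 84.4 CPM in siControl and at 57.1 and 56.9 in siTARG1. Its libraries did not overlap, and the log2 fold change was −0.48 (SE 0.104, adjusted p = 0.00186). MDC1 and TP53BP1 were higher. MDC1, which binds phosphorylated H2AX, was at 28.2 and 30.4 CPM in siControl and at 34.9 and 39.3 in siTARG1, a log2 fold change of 0.34 (SE 0.093, adjusted p = 0.00803). TP53BP1, which encodes 53BP1, had a log2 fold change of 0.30 (adjusted p = 0.00434), and its effector RIF1 one of 0.05, which was not called. The MDC1 call was lost without siControl replicate 1 (0.30) or siTARG1 replicate 2 (0.24), and that of TP53BP1 without siControl replicate 2 (0.23).

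End joining showed the deepest fall. XRCC4 (ENSG00000152422, chromosome 5 of GRCh37, 82373317 to 82649606, plus strand) encodes the scaffold that binds and stabilises DNA ligase IV. It was at 22.0 and 23.1 CPM in siControl and at 9.14 and 9.68 in siTARG1, whereas the RACK1 libraries lay between 20.1 and 22.0. The siTARG1 libraries stood apart from the other 6, and the level fell to 41.9% of siControl (log2 fold change −1.26, SE 0.092, adjusted p = 1.24e-07).

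The Ku genes were lower as well. XRCC5 was at 839.5 and 843.0 CPM in siControl and at 621.2 and 632.3 in siTARG1, a log2 fold change of −0.42 (SE 0.064, adjusted p = 9.2e-05). XRCC6 was at 316.0 and 296.4 CPM in siControl and at 273.6 and 265.6 in siTARG1, a log2 fold change of −0.18 (SE 0.065, adjusted p = 0.0324). The Ku proteins work as a pair, and the ratio of XRCC5 to XRCC6 per length was 2.07 and 2.22 in siControl and 1.77 and 1.86 in siTARG1. The XRCC6 call did not hold without either siControl library (log2 fold change −0.13 and −0.22), without siTARG1 replicate 2 (−0.17), without either RACK1-WT library (−0.18 each), or when only the 4 libraries of the comparison were fitted (−0.19).

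PRKDC, the kinase that Ku recruits (0.06), and DCLRE1C, the nuclease Artemis (−0.12), did not pass the test. POLQ, the polymerase of the alternative end-joining route that relies on short repeats, was higher, at 61.2 and 56.2 CPM in siControl and 77.002 and 77.907 in siTARG1 (log2 fold change 0.40, SE 0.074, adjusted p = 5.78e-04). The row of NHEJ1, which encodes the XRCC4-like factor XLF, was at 20.5 and 21.7 CPM against 32.1 and 30.7 (0.57, SE 0.084, adjusted p = 7.24e-05). That row joins NHEJ1 with SLC23A3 and ENSG00000280537, and as few as 5 counts per library fell on its coding sequence, so that the call was lost with coding-sequence counts and the row cannot be read as NHEJ1 alone.

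**Figure D3:**
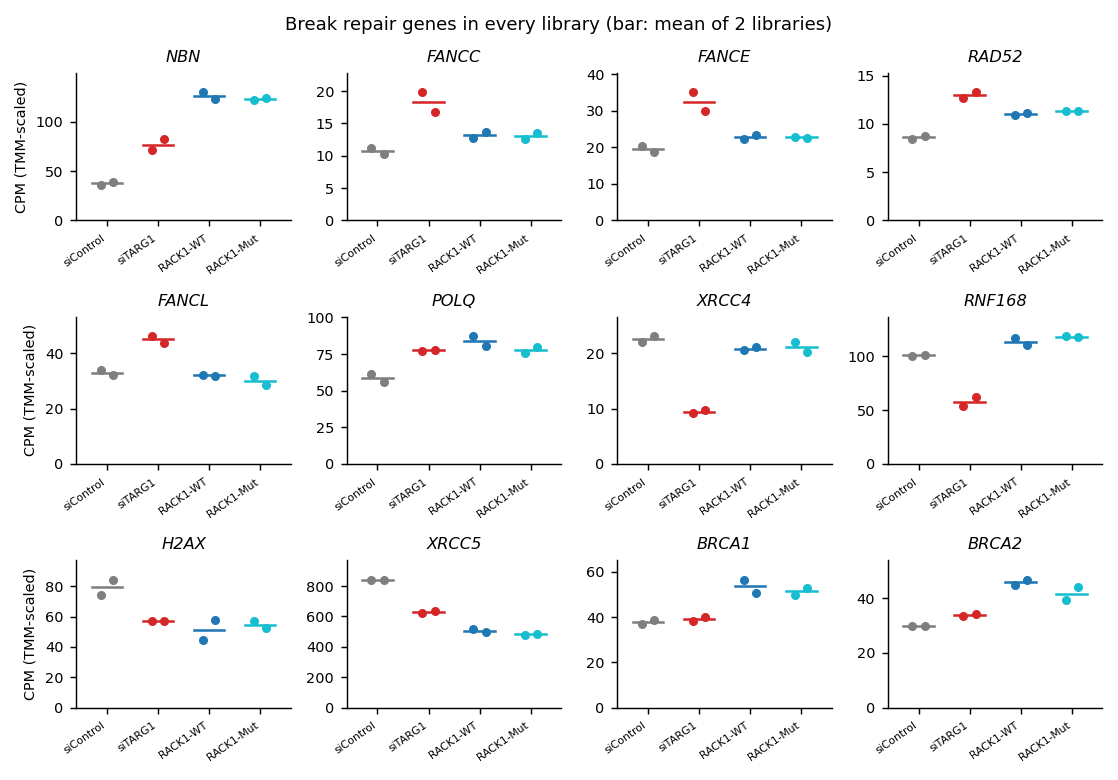
CPM in each of the 8 libraries (points) and the mean of each group (bars) for 12 members, on axes that start at 0. XRCC4 and RNF168 are low in the siTARG1 libraries only, NBN rises from siControl through siTARG1 to the RACK1 groups, and BRCA1 overlaps between siControl and siTARG1.

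The checkpoint kinases were the only role with several members in which none was called. ATR, the kinase that answers single-stranded DNA, had a log2 fold change of −0.18 (adjusted p = 0.0528), and CHEK2, a target of ATM, one of −0.19 (adjusted p = 0.0709). ATM itself was at −0.12, ATRIP, the partner of ATR, at −0.20 and CHEK1 at 0.05. These calls turned on 1 library: ATR (−0.24) and CHEK2 (−0.26) passed the threshold without siControl replicate 2, and ATRIP (−0.31) without siTARG1 replicate 1. The same was seen for RAD50 (−0.31) and BRIP1 (−0.29) without siTARG1 replicate 2. MUS81, which cuts joined DNA molecules, had a log2 fold change of −0.011.

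Coding reads and reads of the 3′ untranslated region were counted apart, which gave a second view of each transcript. In the 36 members with at least 50 counts in every library in both regions, the log2 ratio of siTARG1 to siControl had the same sign in 30. The 3′ region minus the coding sequence had a median of 0.046, and 32 members lay within 0.25. The gap was widest for NBN and XRCC4. For NBN the coding ratio was 0.87 and the ratio of the 3′ region 1.45, where the libraries held 7.91 and 9.39 CPM in siControl and 20.2 and 27.0 in siTARG1. For XRCC4 the ratios were −1.19 and −1.51, and the 3′ libraries held 4.64 and 6.21 CPM in siControl and 1.35 and 2.47 in siTARG1. RNF168 fell alike in coding and 3′ reads, at −0.75 and −0.80. These ratios were not tested.

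**Figure D4:**
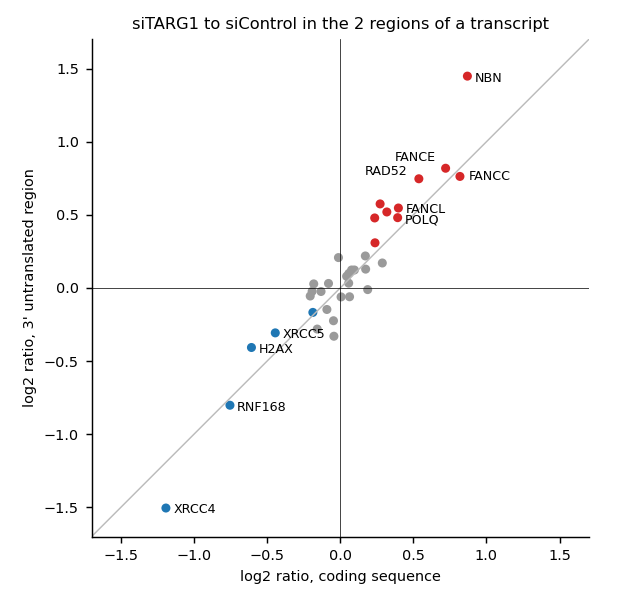
Log2 ratio of siTARG1 to siControl in coding reads (horizontal axis) and in reads of the 3′ untranslated region (vertical axis) for 36 members, coloured red (higher), blue (lower) or grey (not called) by the test on whole exons, with the line of equality. Most members lie close to the line, and NBN lies above it at 0.87 and 1.45.

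The 3′ untranslated regions were searched for the word TGAACAT, which an earlier look at these libraries had tied to lower RNA in siTARG1 cells. Of 13747 rows with such a region, 15.1% held it, with a median log2 fold change of −0.13 against 0.027 in the rows without it. Of the rows with the word 38.0% were called lower in siTARG1, against 20.5% of those without. Of the 48 members, 12.5% held it, namely XRCC4, BARD1, CHEK1, TP53BP1, RIF1 and NHEJ1, each once except XRCC4. The region of XRCC4, of 545 bases, held it at 2 places separated by 7 bases. The sites of 3 members are shown, one that fell, one that rose and one that was not called. They are on GRCh37, 5′ to 3′ along the transcript, with the word in capitals.
XRCC4 (chr5:82649466-82649494, plus strand): attcTGAACATtgatgttTGAACATttta
BARD1 (chr2:215593369-215593397, minus strand): attataccagaTGAACATttcaaattgaa
CHEK1 (chr11:125525867-125525895, plus strand): aaaattactgtTGAACATcttaaatattt
XRCC4 was the only one of these 6 that fell. BARD1, TP53BP1 and the joined row of NHEJ1 rose, and CHEK1 (0.05) and RIF1 (0.05) were not called. RNF168, which fell by 0.80 on the log2 scale, did not hold the word. A second word from that earlier look, GAATATA, was also in 15.1% of rows, with a median of 0.133 against −0.007 without it. It was in 13 members (27.1%), of which 6 rose (NBN, RAD52, FANCL, BARD1, RNF8 and the NHEJ1 row) and none fell. Over all rows tested 23.5% rose and 23.1% fell, and the share that rose among rows with GAATATA was not counted. Of all rows with GAATATA 19.8% were called lower, against 23.8% of those without it. Both words came from these same libraries, so neither the medians and shares over all rows nor the members' counts carry weight of their own. Whether either word had a part in the level of any member was not tested.

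Promoter windows from 250 bases before to 50 bases after the gene start were matched by symbol for 45 of the 49 members (RefSeq, GRCh38.p14). The word CCGGAAG, to which ETS factors bind, was searched on both strands and lay in 33.3% of the members' windows, against 10.7% of all 27305 windows and 17.9% of those of tested genes. It was found in 2 of 12 members that rose, in 2 of 4 that fell and in 10 of 28 that were not called in siTARG1, and in LIG4. The words TTTCCCGC and TTTGGCGC of E2F factors lay in 8.9% of members' windows against 3.5% of those of tested genes, in FANCC, XRCC6, XRCC2 and FANCD2. For CCAAT, the word of NF-Y, the shares were 48.9% and 36.7%. Windows of CCGGAAG are shown from a member that rose, one that fell and one that was not called, 5′ to 3′ on the strand of the gene with the word in capitals.
POLQ, 109 bases before the start: aggttggaggCCGGAAGtcttagacgc
RNF168, 88 bases before the start: cgcgcagaccCCGGAAGtcccgccccg
BRCA2, 88 bases before the start, on the opposite strand: ccaggcctgaCTTCCGGgtggtgcgtg
The same word thus stood before members of every outcome. A match is only a string of letters and was not tested as a binding site.

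The second comparison asked whether the MARylation-site mutant of RACK1 changed these transcripts. None of the 48 members was called in RACK1-Mut against RACK1-WT, in either direction, by edgeR or by DESeq2, and none had an unadjusted p under 0.05 with either tool. The groups also differed in RACK1 itself, whose whole row was at 1762 and 1898 CPM in RACK1-WT and at 1398 and 1454 in RACK1-Mut, 77.9% of RACK1-WT with no overlap, although it was not called (adjusted p = 0.295). The part of this difference in the members' values was not tested. Of all rows, 4.90% had an unadjusted p under 0.05 by edgeR, 0% were called higher and 0.00713% lower. The members' log2 fold changes lay between −0.18 (MDC1) and 0.17 (RNF8), with a median of −0.038 against 0.005 over all rows and standard errors between 0.064 and 0.124. Both of these genes had been called after TARG1 depletion, and their libraries did not overlap here either: MDC1 was at 33.4 and 34.2 CPM in RACK1-WT and at 27.5 and 32.1 in RACK1-Mut, and RNF8 at 29.6 and 28.9 against 33.1 and 32.8. Of the members that changed most with siTARG1, NBN was at 129.7 and 122.6 CPM in RACK1-WT and at 121.9 and 123.9 in RACK1-Mut. XRCC4 was at 20.5 and 21.0 against 22.0 and 20.1, and RNF168 at 116.8 and 110.5 against 119.0 and 117.9. BRCA1 was at 56.7 and 50.5 CPM against 49.8 and 53.0, and BRCA2 at 44.8 and 46.9 against 39.3 and 44.3. The groups overlapped for NBN, XRCC4 and BRCA1 and did not for RNF168 and BRCA2.

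A call in one comparison and not in the other does not show that they differ, so the difference of the effects was tested. The siTARG1 effect exceeded the RACK1-Mut effect in 11 members, 22.9%, and fell below it in 4, 8.3%, against 16.1% and 16.3% of all rows. The first were NBN (difference 1.06, adjusted p = 1e-05), FANCC (0.78), FANCE (0.74), RAD52, FANCL, MDC1, POLQ, NHEJ1, RAD54L, TP53BP1 and BRCA2. The others were XRCC4 (−1.27, adjusted p = 5.62e-06), RNF168 (−0.86), H2AX (−0.57) and XRCC5 (−0.36). Of the 18 members called after TARG1 depletion, BARD1, RNF8, FANCB and XRCC6 did not pass this test, although BARD1 did without siTARG1 replicate 1 (0.34), as did XRCC3 without siTARG1 replicate 2 (0.34). BRCA2, called in neither comparison, was at 0.31 (adjusted p = 0.0471) and was lost without either siControl library (0.33 and 0.32), siTARG1 replicate 2 (0.29), either RACK1-WT library (0.35 and 0.28) or RACK1-Mut replicate 1 (0.23). RAD54L was lost without siControl replicate 2 (0.31), siTARG1 replicate 1 (0.40) or any of the RACK1 libraries (0.38 to 0.54). TP53BP1 was lost without siControl replicate 2 (0.29), RACK1-WT replicate 1 (0.33) or RACK1-Mut replicate 1 (0.32), and H2AX without either of the last 2 libraries (−0.40 and −0.51). With coding-sequence counts the calls of RAD52 (0.45, adjusted p = 0.053), RAD54L (0.42) and NHEJ1 (0.89, adjusted p = 0.381) were lost, and that of BRCA2 was lost with DESeq2 (0.32) and with no filter on low counts (0.30).

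The third comparison, RACK1-WT against siControl, crosses the experiments, so that the cell pools, RACK1, the agents and the experiment cannot be told apart. RACK1 was at 40.1% of its siControl level of 4622 and 4516 CPM. It shares the siControl libraries with the first. It held more calls: 11 members were higher and 13 lower, 22.9% and 27.1%, against 31.9% and 31.4% of all rows, with a median log2 fold change of −0.004 (all rows −0.016). NBN was the member furthest from siControl, at 129.7 and 122.6 CPM (log2 fold change 1.74, SE 0.083, adjusted p = 5.02e-10), above the siTARG1 libraries too. The nuclease EXO1 followed, at 32.4 and 31.3 CPM in siControl and 55.7 and 54.2 in RACK1-WT (0.79, SE 0.075, adjusted p = 6.01e-07).

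BRCA1 and BRCA2 were higher in RACK1-WT than in siControl. BRCA1 was at 56.7 and 50.5 CPM in RACK1-WT (log2 fold change 0.50, SE 0.081, adjusted p = 9.93e-05) and BRCA2 at 44.8 and 46.9 (0.62, SE 0.081, adjusted p = 1.41e-05). Their bridge PALB2 was lower, at 41.2 and 44.3 CPM in siControl and 28.8 and 28.9 in RACK1-WT (−0.57, adjusted p = 2.49e-05). The ratio of BRCA2 to PALB2 per length was 0.243 and 0.225 in siControl, 0.266 and 0.258 in siTARG1, and 0.520 and 0.542 in RACK1-WT. The accessory genes of strand exchange were lower in 4 of 5 cases: XRCC2 (−0.44), RAD51C (−0.43), XRCC3 (−0.41) and the joined row of RAD51D (−0.21), while RAD51B was at 0.24 and not called. RAD52 was higher (0.36).

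Among the other roles, FANCD2 (0.61), ATRIP (0.56), POLQ (0.51), FANCF (0.35), FANCC (0.29) and MRE11 (0.26) were higher in RACK1-WT than in siControl. XRCC5 (−0.74), MUS81 (−0.68), H2AX (−0.63), the NHEJ1 row (−0.58), BRIP1 (−0.54), XRCC6 (−0.31), RAD50 (−0.24) and RBBP8 (−0.19) were lower. XRCC4 (−0.11) and RNF168 (0.17), the members that fell most with siTARG1, were not called here. Some calls did not hold when 1 library was left out. FANCC was lost without siControl replicate 2 (0.24), RACK1-WT replicate 1 (0.34) or replicate 2 (0.24), and FANCF without RACK1-WT replicate 2 (0.30). RAD50 was lost without siControl replicate 2 (−0.22) or RACK1-WT replicate 2 (−0.20). RBBP8 was lost without siControl replicate 2 (−0.14) or either RACK1-WT library (−0.20 and −0.18). RAD51D was lost without any 1 of the 4 libraries of the comparison (−0.22 to −0.20). With coding-sequence counts the calls of FANCC (0.23), RBBP8 (−0.17) and RAD51D (−0.20) were lost, and that of RAD51D also with DESeq2 (−0.20).

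**Figure D5:**
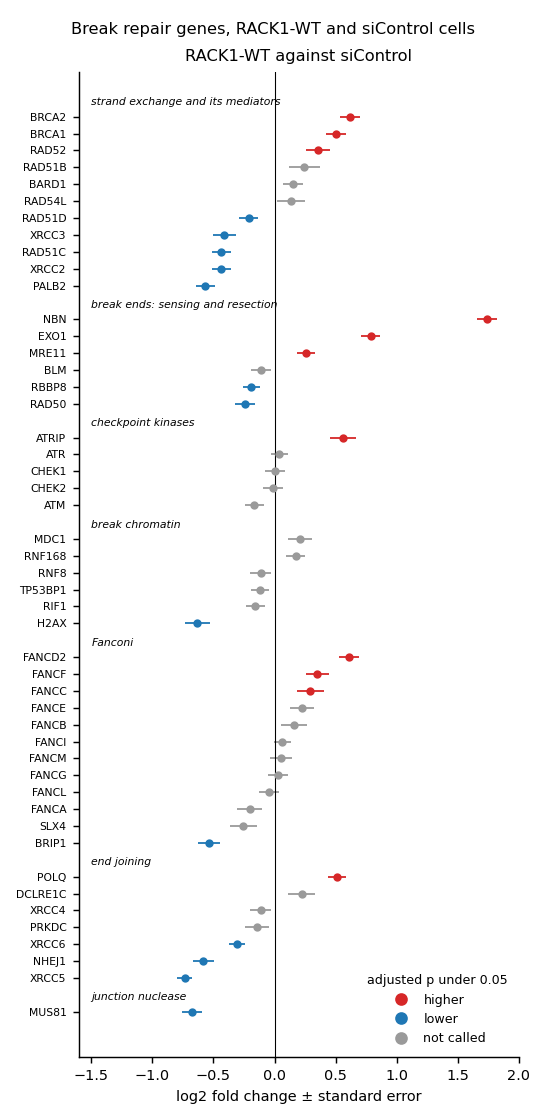
Log2 fold change with its standard error of RACK1-WT against siControl for the 48 tested members, by role, coloured by the call at an adjusted p of 0.05. NBN stands at 1.74 and EXO1 at 0.79, BRCA1 and BRCA2 are higher and PALB2, RAD51C, RAD51D, XRCC2 and XRCC3 are lower.

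Set side by side, 4 members (NBN, RAD52, FANCC and POLQ) were higher and 3 (H2AX, XRCC5 and XRCC6) were lower than siControl in both siTARG1 and RACK1-WT cells. NHEJ1's row was the only one called in opposite directions. Since both comparisons use the same siControl libraries, these counts carry no weight of their own.

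Other genes of the same pathways were read in the same way. Of 73 listed, 72 had a row and 71 were tested, and in siTARG1 against siControl 25 were higher (35.2%) and 10 lower (14.1%), with a median log2 fold change of 0.092. Over all rows these were 23.5%, 23.1% and 0.007. RMI2, a partner of BLM, was at 18.1 and 19.4 CPM against 34.3 and 34.2 (0.87, adjusted p = 1.33e-05), and MAD2L2, a shieldin subunit that limits resection, at 26.6 and 22.7 against 47.7 and 39.5 (0.82, adjusted p = 1.86e-05). The ATPase gene FIGNL1 had the highest value (0.94, adjusted p = 0.022), but from 92 to 380 counts per library and with overlapping groups (2.31 and 5.31 CPM against 5.14 and 9.09). Its call was lost without siControl replicate 1 (0.44) or siTARG1 replicate 2 (0.47), with DESeq2 (0.91, adjusted p = 0.157) and when only the 4 libraries of the comparison were fitted (0.94, adjusted p = 0.0547).

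RPA2, a subunit of the protein that coats single strands, was the lowest of these genes, at 90.4 and 85.4 CPM in siControl and 53.6 and 51.7 in siTARG1 (−0.74, adjusted p = 1.74e-06). The helicase gene HELQ was lower as well, at −0.37 (adjusted p = 0.0247). The HELQ call was lost without siControl replicate 1 (−0.23) or siTARG1 replicate 2 (−0.21), or with only the 4 libraries of the comparison (−0.37). In RACK1-Mut against RACK1-WT none of the 71 was called by edgeR, and 1 had an unadjusted p under 0.05.

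Transcripts of the cell cycle also changed in siTARG1, and their part in the members' values was not tested. Of 20 S phase genes 9 were higher and 2 lower in siTARG1, 45.0% and 10.0%, against 23.5% and 23.1% of all rows. Their median log2 fold change was 0.18, against 0.007 over all rows. Among them MCM3 (0.89) and CDC6 (0.56) were higher and UHRF1 (−0.52) was lower. Of 20 mitosis genes none was higher and 14 were lower (70.0%, median −0.30), with KIF20A at −0.73 and AURKA at −0.63. Of 16 transcripts known to be induced by DNA damage, 8 were higher and 5 lower (median 0.27). The p53 targets CDKN1A (−2.47) and FAS (−1.57) fell while RRM2B (0.94) and SESN2 (0.94) rose, so that the list did not move one way.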

How the data were processed

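The 8 libraries were sorted into 4 groups by the sample labels. The authors depleted rRNA, filtered reads with Bowtie 1.1.2, aligned them to GRCh37 with TopHat2 2.1.1 and summed alignments 25 to 51 bases long over each gene; versions are from the submitters' processing notes. The deposited values are estimated counts over exons, coding sequence and untranslated regions, not normalized. The authors also deposited RPKM, which was not tested. Reads with several matches were kept, so genes with pseudogenes (BRCA1, CHEK2, FANCD2, XRCC6) are uncertain.

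Rows were named from Gencode v44lift37 (94.7% of 36595 transcript names matched; rows without a gene held 1.19% of counts). Exon counts were rounded and tested with edgeR 4.0.16 (R 4.3.3): TMM, filterByExpr, 1 mean per group, quasi-likelihood F test, Benjamini-Hochberg adjustment over 14024 rows, threshold 0.05. The residual degrees of freedom were 4. Standard errors came from the fold change and its F statistic. In simulated data with 100 genes changed 2-fold and 100 changed 1.5-fold, 87% and 72% of them were recovered for siTARG1 against siControl. In the real comparison 6537 of the 14024 rows were called, so these shares do not measure how many real changes were found. The number of libraries, more than depth, limits precision.

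Full statistics are given for called members whose libraries do not overlap (the 10 highest and 10 lowest in siTARG1), any with an unadjusted p under 0.05 in RACK1-Mut or under 10 counts, BRCA1, BRCA2, RAD51B, RAD51C, RAD51D, XRCC2 and XRCC3, and, of the other repair genes, the 3 highest and 3 lowest called (some items this rule names are not reported here); other genes, the partner ratios, the words and the motifs were picked after values were seen. Members and lists were chosen with earlier results of these data known. Alternatives were DESeq2 1.42.0, RLE factors, other filters, the 4 libraries of a comparison, a replicate block, rows summed by symbol, coding-sequence counts and leaving out each library.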

Additional observations from a re-analysis of the deposited data

How the results depend on the processing

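Counts of called members stayed within 1.5 times the reported value under all 16 alternatives. In siTARG1 against siControl, 7 of the 13 members higher (RAD52, RAD54L, NBN, FANCC, FANCE, FANCL and POLQ) and 4 of the 5 lower (H2AX, RNF168, XRCC4 and XRCC5) were called in every one; with each library left out in turn, 11 to 13 members were higher and 4 to 6 lower. In RACK1-WT against siControl, 9 of 11 higher and 9 of 13 lower were called in every alternative. Of the calls on the difference of the effects, 6 of 11 positive (NBN, MDC1, FANCC, FANCE, FANCL and POLQ) and 3 of 4 negative (RNF168, XRCC4 and XRCC5) were made in all 15 alternatives run. In RACK1-Mut against RACK1-WT, 0 members were called in any alternative. The row of NHEJ1 turned from −0.58 to 0.61 in RACK1-WT against siControl with coding-sequence counts, where its reads are few. With a replicate block, 14 members were higher and 5 lower in siTARG1 (XRCC3 was added) and 13 were higher and 13 lower in RACK1-WT (FANCE and MDC1 were added); the same-numbered libraries deviated together with r = 0.256 between siControl and siTARG1 and 0.028 between RACK1-WT and RACK1-Mut, and nothing in the labels says that a number marks a shared culture, so the samples share only a number. The members' median in RACK1-WT against siControl, −0.004, ranged from −0.039 to 0.080 across these refits. Some uncalled members passed in RACK1-WT against siControl when 1 library was left out: RAD51B (0.39, RACK1-WT replicate 1), RAD54L (0.33, siControl replicate 1) and ATM (−0.25, siControl replicate 2), and, without a siTARG1 library, ATM, RIF1, MDC1, RNF168, FANCE and SLX4. With 2 libraries a group, changes of under about 0.2 on the log2 scale were mostly not called in the 2 comparisons with siControl. In RACK1-Mut against RACK1-WT larger changes were not called either, such as RACK1 itself at −0.36 (edgeR adjusted p = 0.295).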
